A study of Mus musculus with 18 samples.

Results

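The mitochondrial ribosomal protein genes were described across single mouse oocytes. They were chosen by symbol alone, as every gene whose symbol begins with Mrpl or Mrps and a digit, with pseudogenes left out. This gave 78 of the 47069 genes in the tables, 49 of the large subunit (Mrpl) and 29 of the small subunit (Mrps). All 78 passed the filter on low counts, which left 12037 genes in all. A further 5 symbols were pseudogenes and were not used.

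The oocytes came from C57BL/6 wild-type mice, and each was its own SMART-seq2 library, a method that copies polyadenylated RNA. There were 3 oocytes in each of 6 groups: matured in vitro to metaphase II together with MSC (MSC-IVM-MII) at an age of 12 months (12m) or 6 weeks (6wk), matured in vitro to metaphase II without MSC (IVM-MII) at 12m or 6wk, and at the germinal vesicle stage (GV) at 12m or 6wk. The labels do not spell out MSC. By the labels' protocols the nucleus was spun down and the supernatant was used. No animal, litter or culture is named for an oocyte, so the 3 oocytes of a group counted as 1 sample, and no test, standard error or p-value was derived from them. Values after ± are the SD over oocytes and describe these cells alone.

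The mitochondrial ribosome translates the few proteins encoded in mitochondrial DNA, all of them subunits of the respiratory chain and ATP synthase. Its RNAs come from mitochondrial DNA, whereas every one of its proteins is encoded in the nucleus, made in the cytosol and imported. Some of these proteins have bacterial counterparts and others were gained in mitochondria. GV oocytes hold a large store of maternal mRNA, transcription is silent from late growth on, and much of the store is degraded or newly polyadenylated while meiosis proceeds to metaphase II.

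Promoters were examined for motifs of 3 factors known to act on nuclear genes of mitochondrial function: the ETS core CCGGAAG that GABPA binds, the NRF1 core GCATGCGC and the YY1 motif AAGATGGC. Each was searched on both strands of RefSeq promoters (GRCm38.p6, 250 bases before to 50 bases after the start), which matched 69 of the 78 genes. The ETS core was present in 26 of the 69 (37.7%), against 9.93% of all 27025 promoters and 20.6% of the promoters of measured genes. The YY1 motif was present in 12 (17.4%, against 3.19% and 5.56%) and the NRF1 core in 8 (11.6%, against 3.05% and 6.31%). A match is a description of letters and not a bound site. The 120 bases upstream of the start are shown for 1 gene whose measured level was very low in metaphase II oocytes (Mrpl22, chr11:58171544-58171663, plus strand). They are also shown for 1 whose measured level was kept (Mrpl53, chr6:83108988-83109107, plus strand). Both read 5′ to 3′, and capitals mark the motifs on either strand.
Mrpl22: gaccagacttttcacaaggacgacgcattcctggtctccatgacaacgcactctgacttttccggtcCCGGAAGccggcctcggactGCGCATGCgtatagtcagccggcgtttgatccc
Mrpl53: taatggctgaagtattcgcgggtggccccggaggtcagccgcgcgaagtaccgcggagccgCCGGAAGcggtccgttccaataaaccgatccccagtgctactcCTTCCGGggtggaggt
The Mrpl22 stretch holds an ETS core followed by an NRF1 core, and the Mrpl53 stretch holds 2 ETS cores on opposite strands. The median maturation difference of genes with an ETS core was −2.20, against −2.58 for those without, as the mean of the 4 maturation comparisons described below. For the NRF1 core it was −3.19 with and −2.40 without, and for the YY1 motif −2.48 and −2.40.

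Total counts ranged from 1914072 to 9193559 per oocyte. Each title carries 1 of 5 prefixes, and no prefix occurs at both ages, so age and prefix cannot be told apart. GV 12m oocyte 3 held the most cumulus and granulosa transcripts: the summed level of 20 markers of these cells was 184, 94.6 and 2056 CPM (counts scaled to a common library size with TMM factors) in the 3 GV 12m oocytes, against 82.7 CPM at most in any metaphase II oocyte. In co-cultured oocytes the 12 mesenchymal markers summed to no more than 7.55 CPM at 12m and 2.32 CPM at 6wk, against 1.88 CPM at most without MSC and 15.2 CPM at most in GV oocytes. The part of such transcripts in the results was not tested. The metaphase II oocytes with the title prefix Y01 (MSC-IVM-MII 6wk oocyte 1 and IVM-MII 6wk oocyte 1) stood apart in the values that follow. The 10 oocyte markers all had counts in every group. Their summed level was 5178 to 25073 CPM in metaphase II oocytes, the highest being the Y01 oocytes at 25073 CPM without and 19380.5 CPM with MSC, and 6944 to 50812.5 CPM in GV oocytes, the lowest being GV 12m oocyte 3. The part of this spread in the results was not tested. TMM scaling gave GV 12m oocytes 1 and 3 library sizes of 4.72e+06 and 6.84e+06, where their total counts were 6317859 and 4679473. The 78 genes summed to 19745 and 7298 CPM in these 2 oocytes, but to 18796.5 and 16707 TPM. The spread of CPM between GV 12m oocytes thus depends on this scaling.

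In GV oocytes the level per transcript length, as the authors' TPM, differed widely within the family. The mean over the 6 GV oocytes ranged between 2.56 TPM for Mrpl19 and 1559 TPM for Mrps33. The median gene stood at 121 TPM in the large and 158 TPM in the small subunit. The 5 most abundant were Mrps33 (1559 ± 387 TPM, SD, n = 6 oocytes), Mrps36 (766 ± 98.1), Mrpl48 (762 ± 138), Mrpl32 (707 ± 99.4) and Mrps22 (667 ± 99.6). Except for Mrps33, these neighbours in the order differed by less than their spread. The 5 least abundant were Mrpl49 (18.1 ± 4.61 TPM), Mrps2 (16.7 ± 12.5), Mrps34 (11 ± 9.01), Mrpl50 (10.5 ± 1.60) and Mrpl19 (2.56 ± 1.14). In metaphase II oocytes the order had changed: Mrps14 was first (792 TPM over 12 oocytes, rank 10 in GV), and Mrps22 had dropped to rank 52 (13 TPM). The rank correlation between the stages was 0.51 across the 78 genes, which are not independent replicates. It was 0.41 across large and 0.66 across small subunit genes.

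Transcripts of the mitochondrial ribosome made up a smaller share of counts in each metaphase II oocyte than in any GV oocyte. The 78 genes took 0.524%, 0.280% and 0.40% of counts in the 3 MSC-IVM-MII 12m oocytes, 0.256%, 0.421% and 0.357% in MSC-IVM-MII 6wk, 0.457%, 0.431% and 0.320% in IVM-MII 12m and 0.271%, 0.580% and 0.527% in IVM-MII 6wk. In GV oocytes they took 1.48%, 1.18% and 1.07% at 12m and 1.2%, 0.771% and 1.45% at 6wk. The highest metaphase II oocyte thus stayed below the lowest GV oocyte, and both Y01 metaphase II oocytes lay at the bottom of their groups. The summed level per length ran in the same direction, 3843 to 7140 TPM in the 12 metaphase II oocytes against 12641.5 to 19479 TPM in the 6 GV oocytes. All 78 genes had counts in each GV oocyte, and 64 to 75 of them in a metaphase II oocyte. Fewer molecules of these mRNAs, a change in their poly(A) tails and more of other polyadenylated RNA cannot be told apart in such shares.

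**Figure D1:**
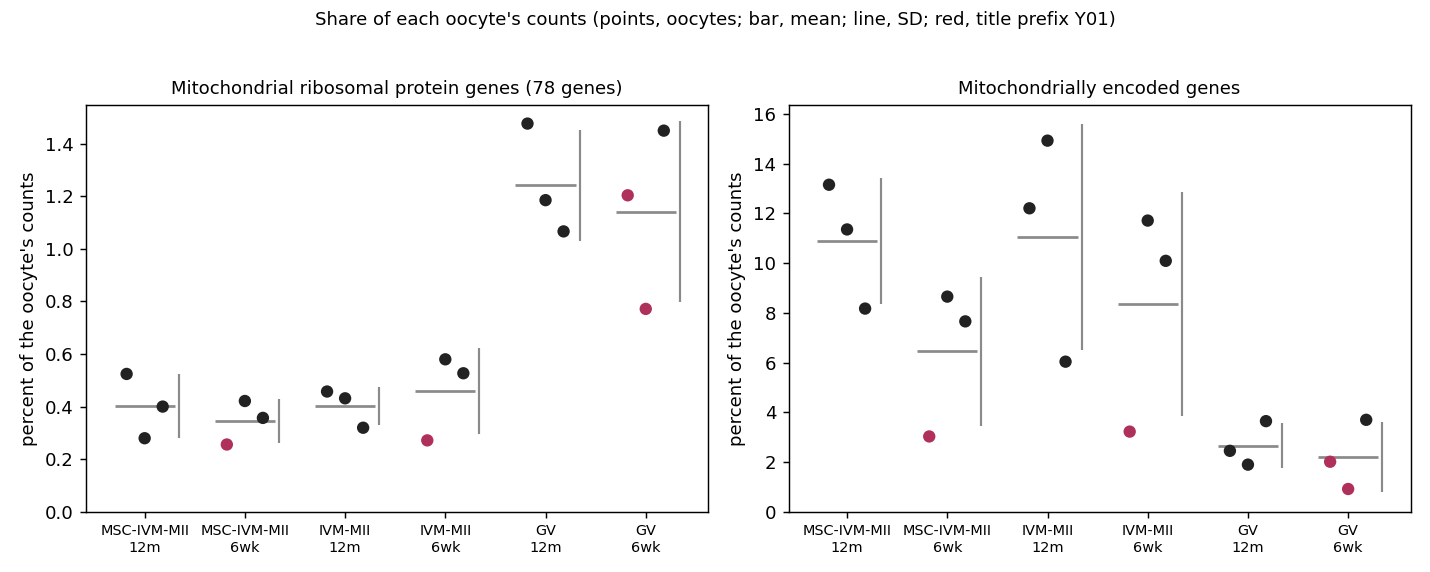
Percent of each oocyte's counts (vertical axes) from the 78 mitochondrial ribosomal protein genes (left) and from the mitochondrially encoded genes (right), by group; points are oocytes, horizontal bars group means, vertical lines SD, red points title prefix Y01. The 12 metaphase II oocytes lie at 0.256% to 0.580% on the left, below the 6 GV oocytes at 0.771% to 1.48%.

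The RNAs that the mitochondrial ribosome reads moved the other way. Mitochondrially encoded genes took 3.03% to 14.9% of counts in metaphase II oocytes and 0.917% to 3.70% in GV oocytes, so these ranges overlapped. The lowest metaphase II values, 3.03% and 3.22%, belonged to the Y01 oocytes. Of the 13 mitochondrially encoded mRNAs, 12 were higher by 2-fold or more in IVM-MII than in GV oocytes at 12m (all genes 17.4%) and 12 at 6wk (all genes 19.8%), with median differences of 1.55 and 2.0 on the log2 scale. Of these, 10 were without overlap at 12m (all genes 11%) and 3 at 6wk (all genes 10.8%). With MSC 12 were higher at 12m (all genes 18.3%), 11 without overlap (all genes 11.1%). At 6wk with MSC 10 were higher (all genes 23%), 1 without overlap (all genes 14.2%).

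Each maturation comparison asked how transcript levels change between the GV stage and metaphase II in vitro. The measure for a gene is the mean log2(CPM + 1) of the metaphase II oocytes minus that of the GV oocytes of the same age, and a gene was called where this reached 1 in size, a 2-fold change on that scale. Between IVM-MII and GV at 12m, 63 of the 78 genes were lower by 2-fold or more, where 37.5% of all measured genes were, and 0 were higher, against 17.4%. Without overlap between the oocytes of both groups, 57 were lower, against 24.7% of all genes. At 6wk 59 were lower (all genes 36.9%), 48 of them without overlap (all genes 25.8%), and 3 were higher (all genes 19.8%), Mrpl3, Mrps14 and the low-level Mrpl19.

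Maturation in the presence of MSC gave like counts. MSC-IVM-MII 12m oocytes had 62 genes lower by 2-fold or more than GV 12m oocytes (all genes 40.2%), 58 without overlap (26.7%), and 0 higher (18.3%). MSC-IVM-MII 6wk oocytes had 61 lower than GV 6wk oocytes (all genes 33.7%), 57 without overlap (26.1%), and 1 higher (all genes 23%). The medians of the 78 genes were −2.82 at 12m and −2.52 at 6wk with MSC, and −2.52 at 12m and −2.35 at 6wk without, while the medians of all genes were −0.52, −0.21, −0.45 and −0.37. Comparisons with and without MSC share their GV oocytes, so they are not independent of each other. Without GV 12m oocyte 3 the lower counts at 12m were 64 with MSC and 67 without. Without the Y01 metaphase II oocytes those at 6wk were 58 and 50. The shares of all genes were not recomputed for these. Within title prefixes held by both groups the medians were −2.59 at 12m and −2.87 at 6wk with MSC and −2.28 and −2.72 without. The scaling moved all of these together: with median-of-ratios size factors the IVM-MII 6wk median of all genes became −0.56, and the family's median minus that of all genes was −2.03, against −1.98 with TMM.

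Across the 4 maturation comparisons, 55 of 78 genes (70.5%) were lower by 2-fold or more in each, against 23.5% of all measured genes. In 38 genes (48.7%) every one of the 12 metaphase II oocytes lay below every one of the 6 GV oocytes, against 12.3% of all genes. Lower in none of the 4 were 11 genes (14.1%, all genes 47.1%), and 12 were lower in 1 to 3 of them.

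**Figure D2:**
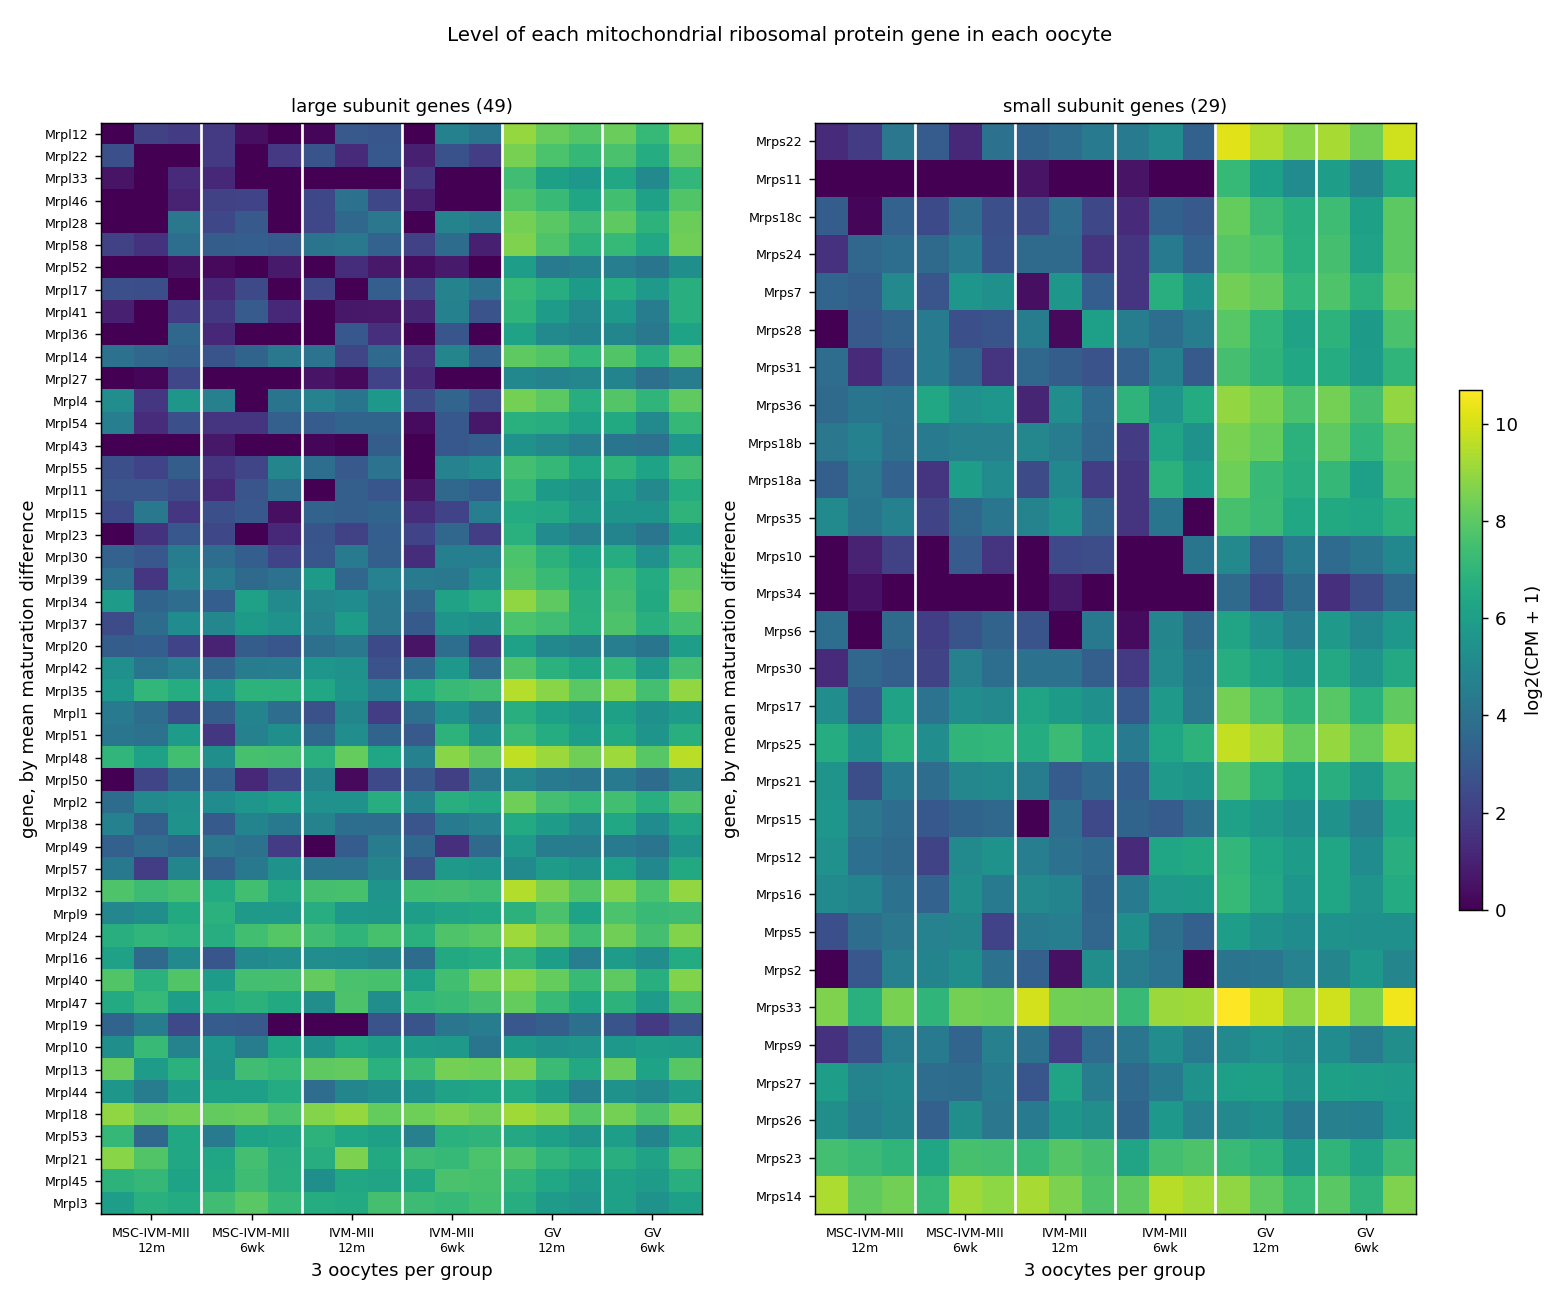
Level of each gene, as log2(CPM + 1) by colour, in each of the 18 oocytes (columns, 3 per group) for the 49 large subunit genes (left) and the 29 small subunit genes (right); genes run down by their mean maturation difference, with the largest fall at the top. In most genes the metaphase II columns are darker than the GV columns, and those near the bottom, from Mrpl10 and Mrps26 down, show no such step.

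Among large subunit genes the deepest falls were in Mrpl12, Mrpl22, Mrpl33, Mrpl46 and Mrpl28. Mrpl12 (chr11:120484613-120489065 on GRCm38) encodes the protein of the stalk to which translation factors come. It had 0, 3.21 and 2.65 CPM in MSC-IVM-MII 12m, 2.53, 0.341 and 0 in MSC-IVM-MII 6wk, 0.116, 6.91 and 6.32 in IVM-MII 12m and 0, 25.3 and 16.9 in IVM-MII 6wk oocytes, against 509.9, 294 and 230.0 in GV 12m and 299.9, 140.5 and 411 CPM in GV 6wk oocytes. The highest metaphase II oocyte, at 25.3 CPM, lay far below the lowest GV oocyte, at 140.5 CPM. The folds of the group means were 176-fold lower at 12m and 297-fold lower at 6wk with MSC, and 77.5-fold and 20.2-fold lower without.

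Mrpl22 (chr11:58171661-58179565), whose promoter stretch is printed above, encodes a protein that lines the exit tunnel for the growing chain. Its 12 metaphase II oocytes lay between 0 and 6.76 CPM (median 2.47), against 98.0 to 366 CPM (median 198) in the 6 GV oocytes. Mrpl46 (chr7:78775236-78783531), a protein with no bacterial counterpart, had 0 to 15.5 CPM (median 0.975), against 68.2 to 223 CPM (median 161), and 5 of the 12 metaphase II oocytes had no count. In neither gene did the stages overlap.

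Mrpl33, a small protein with a bacterial counterpart, had 23 counts in all over the 12 metaphase II oocytes, 8 of them at 0, and 2595 counts over the 6 GV oocytes. The 3 IVM-MII 12m oocytes were all at 0, which makes the gene at least 179-fold lower there than in GV 12m oocytes, taking 3 counts per library as the floor. Mrpl28 had 0 to 26.4 CPM in metaphase II oocytes (median 5.42), against 121 to 355 CPM (median 252) in GV oocytes. Mrpl58, the subunit that is also a peptidyl-tRNA hydrolase and was named after its values were seen, had differences of −5.25 and −4.19 with MSC at 12m and 6wk and −3.84 and −5.03 without.

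In the small subunit the leading gene was Mrps22 (chr9:98588730-98601660), a mitochondria-specific protein whose human gene is known from inherited ovarian insufficiency. Mrps22 had 1.40, 2.65 and 18.2 CPM in MSC-IVM-MII 12m, 7.59, 1.37 and 15.5 in MSC-IVM-MII 6wk, 9.77, 13 and 20.7 in IVM-MII 12m and 20.4, 35.1 and 9.08 in IVM-MII 6wk oocytes. In GV oocytes it had 1173, 686 and 436 CPM at 12m and 635, 335 and 959 CPM at 6wk. The highest metaphase II oocyte was far below the lowest GV oocyte. Group means were 103.4-fold lower at 12m and 79.0-fold lower at 6wk with MSC, and 52.8-fold and 29.9-fold lower without.

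Mrps11 (chr7:78783119-78792989) encodes a protein of the platform of the small subunit. It had 6 counts in all in the 12 metaphase II oocytes, 10 of them at 0, against 143, 64.1 and 34.4 CPM in GV 12m and 60.0, 29 and 82.2 CPM in GV 6wk oocytes. With all co-cultured oocytes at 0, it was at least 99.4-fold lower at 12m and at least 63.7-fold lower at 6wk than in GV oocytes. Mrps11 and Mrpl46 lie head to head on opposite strands and share 173 exonic bases, and where counting did not use strand the reads of these bases cannot be told apart. Mrps18c, 1 of 3 Mrps18 paralogs, had 0.140 to 13.2 CPM in metaphase II oocytes (median 6.02) and 66.7 to 288 CPM (median 164) in GV oocytes.

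Other named falls were less uniform. Mrps35 had differences of −2.45 and −3.22 with MSC at 12m and 6wk and −2.49 and −4.62 without. Mrps7, a protein of the head of the small subunit, had differences of −3.95 and −3.02 with MSC at 12m and 6wk and −4.77 and −3.00 without. Mrpl41 had 0.421 ± 0.366 CPM in IVM-MII 12m oocytes against 73.7 ± 48.6 CPM in GV 12m oocytes, while at 6wk its oocytes overlapped (10.7 ± 12.9 against 58.7 ± 40.8 CPM, SD, n = 3 each). Mrps24 was 21.1-fold lower at 12m and 14-fold lower at 6wk with MSC, and Mrps28 was 26.6-fold and 12.0-fold lower.

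**Figure D3:**
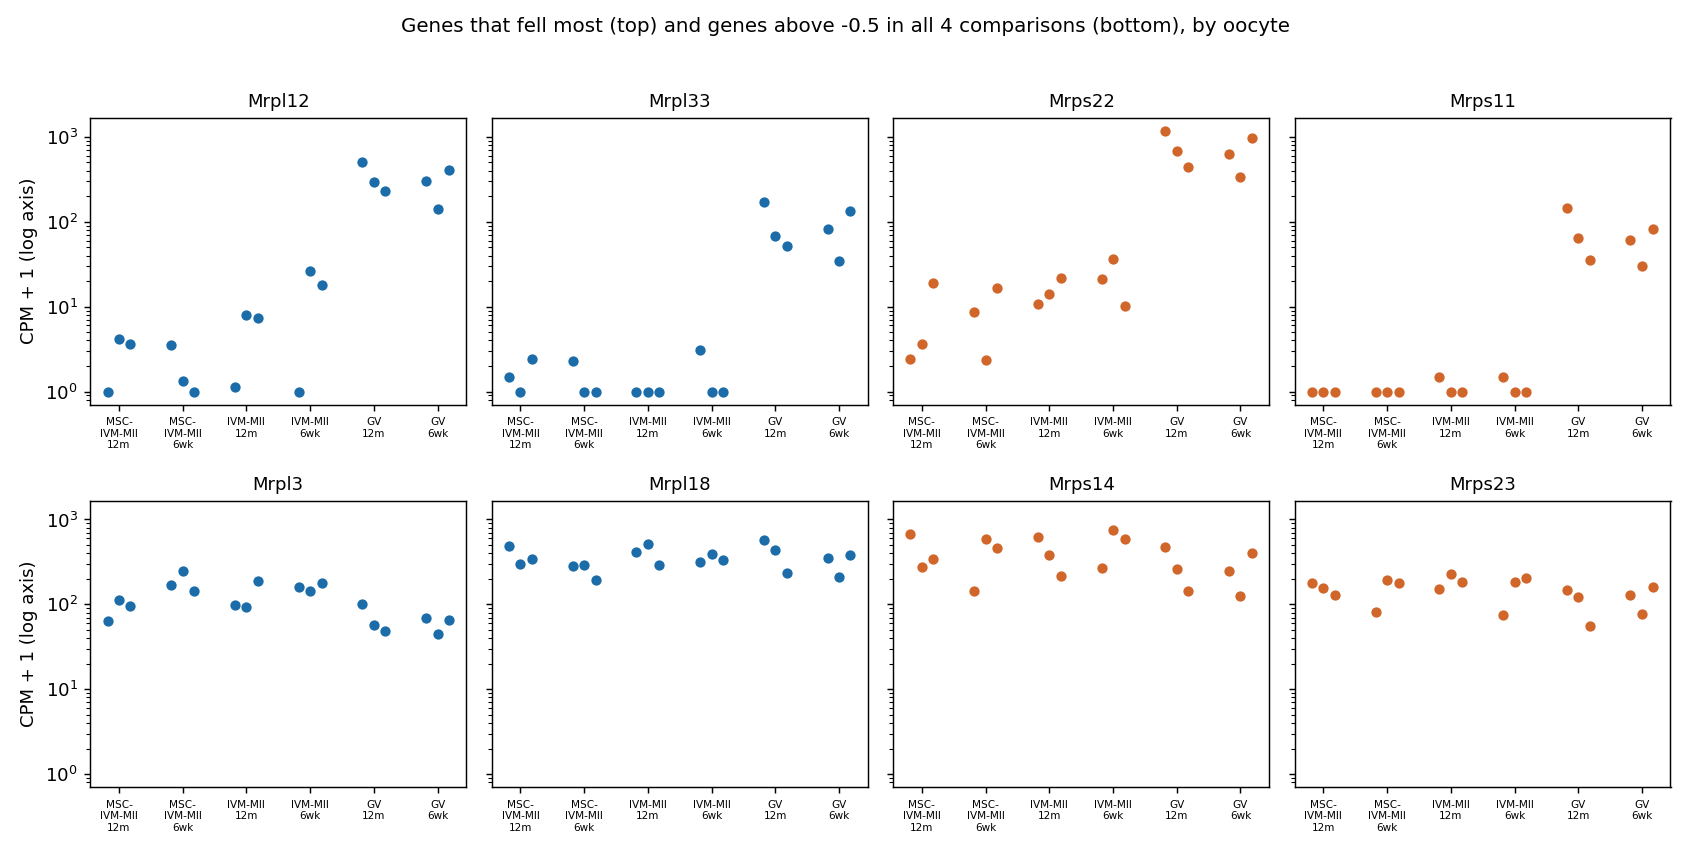
CPM + 1 on a log axis in each oocyte, by group, for 4 genes among the largest falls (top row) and 4 genes whose difference stayed above −0.5 in each maturation comparison (bottom row); blue, large subunit, orange, small subunit. In the top row metaphase II oocytes lie at 35.1 CPM or below (Mrps22) and GV oocytes at 29 CPM or above (Mrps11), with no overlap within a gene.

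Against this fall, 7 genes kept a difference above −0.5 in all 4 maturation comparisons: Mrpl3, Mrps14, Mrps23, Mrpl45, Mrpl21, Mrpl53 and Mrpl18. These are 8.97% of the family, whereas 35% of all measured genes met the same limit. Mrpl3 (chr9:105053239-105079888), a protein close to the peptidyl transferase centre, had 63.3, 110.2 and 94.6 CPM in MSC-IVM-MII 12m, 169, 248 and 142 in MSC-IVM-MII 6wk, 98.3, 90.9 and 187 in IVM-MII 12m and 160.1, 143 and 177 in IVM-MII 6wk oocytes. Its GV oocytes had 99.5, 56.7 and 47.1 CPM at 12m and 68.0, 44.1 and 64.6 CPM at 6wk.

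At 6wk every metaphase II oocyte lay above every GV oocyte for Mrpl3, 3.17-fold higher with MSC and 2.72-fold higher without. At 12m the oocytes overlapped, with differences of 0.43 with MSC and 0.87 without. Its 2-fold rise was therefore seen at 6wk and not called at 12m, and the difference between the ages was not tested.

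Mrps14 (chr1:160195215-160202170), a protein of the head of the small subunit, was the most abundant of the family in metaphase II. Mrps14 had 671, 273 and 344 CPM in MSC-IVM-MII 12m, 143, 581 and 466 in MSC-IVM-MII 6wk, 626, 378 and 217 in IVM-MII 12m and 264, 747 and 590.0 in IVM-MII 6wk oocytes, against 478, 261 and 144 CPM in GV 12m and 249, 123 and 399 CPM in GV 6wk oocytes. The stages overlapped in each comparison, and only IVM-MII 6wk passed 2-fold, with a difference of 1.08. Within 6wk the Y01 metaphase II oocytes were the lowest, at 143 and 264 CPM.

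Mrps23, a mitochondria-specific small subunit protein, was at 74.6 to 226 CPM in the 12 metaphase II oocytes and 54.3 to 161 CPM in the 6 GV oocytes. Its differences were 0.60 and 0.27 with MSC at 12m and 6wk and 0.88 and 0.28 without. Mrpl18, a protein of the central protuberance, stayed near its GV level, at 194 to 514 CPM (median 326) against 208 to 566 CPM (median 368), with differences of −0.09, −0.27, 0.02 and 0.19 in the same order.

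The other kept genes had overlapping stages too. Mrpl45, which tethers the ribosome to the inner membrane at the exit site, had 39.2 to 193 CPM (median 97.8) in metaphase II against 56.8 to 128 CPM (median 76.6) in GV oocytes. Mrpl21 had 78.4 to 438 CPM (median 151) against 71.3 to 214 CPM (median 118), and Mrpl53 had 10.9 to 138 CPM (median 77.7) against 27.4 to 87.0 CPM (median 63.6). Mrpl10, Mrpl13, Mrpl40 and Mrps26 were also called lower in no comparison. Mrpl44, Mrpl47, Mrpl16, Mrps9 and Mrps2 had a difference above −0.5 in 1 or more comparisons, but were lower by 2-fold in 1 or more others. Mrpl10 anchors the Mrpl12 stalk, and its differences were 0.15 and −0.36 with MSC at 12m and 6wk and 0.30 and −0.57 without, where those of Mrpl12 were −7.04, −7.27, −6.35 and −5.06.

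Cytoplasmic polyadenylation elements (CPEs) are short U-rich motifs near transcript ends, bound by CPEB, and are known in oocytes for control of poly(A) tail length and translation during maturation. After the values had been seen, TTTTAT or TTTTAAT was searched on the transcript strand in the last 100 bases of 1 transcript per gene (GENCODE M21). Where the untranslated 3′ end was shorter, only that end was searched, such as 15 bases in Mrps15 and 76 in Mrpl22. Median 3′ ends were 327 bases in the family and 931 over all genes, so windows were not equal. A match was found in 12 of 78 genes (15.4%), against 19.3% of 10819 measured genes with a transcript. Sites of at most 30 bases, 5′ to 3′ with the element in capitals, are shown for 3 genes whose mean difference over the 4 maturation comparisons was above −0.5 (Mrps14, Mrpl53, Mrpl44) and 3 that fell by over 3 (Mrpl14, Mrpl11, Mrps18b).
Mrps14: tcccaggtTTTTATgttctatgcatctact
Mrpl53: aaccaagtacaTTTTAATtaaatatttatt
Mrpl44: agctagatgtaTTTTATtccctccagcttt
Mrpl14: cagaataaatgTTTTAATgtatgttttctt
Mrpl11: acaattaaaacTTTTATtacgtgtataatc
Mrps18b: cctggctcagcTTTTATacaataaagctgt
Of the 7 genes above −0.5 in all 4 comparisons 2 carried the element, and of the other 71 genes 10 did. Family genes with an element had a median IVM-MII difference of −2.19 at 12m and −2.04 at 6wk, and those without had −2.85 and −2.41. Over all measured genes the medians were 0.00 and 0.23 with an element and −0.61 and −0.53 without. Mrpl3, Mrps23, Mrpl45, Mrpl21 and Mrpl18 had no such letters in the window.

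Longer transcripts had differences closer to or above zero. The rank correlation across genes between transcript length and the maturation difference was 0.39 and 0.37 with MSC at 12m and 6wk and 0.38 and 0.34 without in the family, and 0.30, 0.37, 0.23 and 0.31 over all genes with a transcript. The median length was 1302 bases in the family and 2865 bases over all genes. All genes come from the same libraries, so these values are descriptions. GV level showed little relation to the fall, with rank correlations between −0.15 and −0.09.

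The large and the small subunit had similar medians. The large minus small difference of medians was 0.28 with MSC at 12m (−2.61 against −2.89), 0.19 with MSC at 6wk (−2.35 against −2.54), 0.09 without MSC at 12m (−2.49 against −2.59) and 0.50 without MSC at 6wk (−1.99 against −2.49). Lower by 2-fold or more in all 4 comparisons were 34 of 49 large (69.4%) and 21 of 29 small subunit genes (72.4%). Placing genes by structure, with Mrps30 and Mrps18a in the large subunit and Mrps36 in neither, turned the sign with MSC to −0.19 at 12m and −0.11 at 6wk. Per oocyte, the ratio of summed large to summed small TPM was 0.851 to 1.92 in the 12 metaphase II oocytes and 1.16 to 1.27 in the 6 GV oocytes, with 6 metaphase II oocytes above and 4 below the GV range. The same ratio of summed CPM, which weights long transcripts more, was 1.47 to 2.42 in 11 metaphase II oocytes, above the 1.30 to 1.42 of the GV oocytes, and 1.12 in the remaining one, IVM-MII 12m oocyte 1. The mean TPM ratio was higher too, 1.32 in metaphase II against 1.19 in GV oocytes. How uniform the difference was across oocytes thus depended on the scale. The 44 genes with a bacterial counterpart had medians of −2.88 at 12m and −2.37 at 6wk without MSC, and the 34 mitochondria-specific genes −2.39 and −2.28. The latter are all other members, with no bacterial counterpart or a distant one, and Mrps36 is among them.

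**Figure D4:**
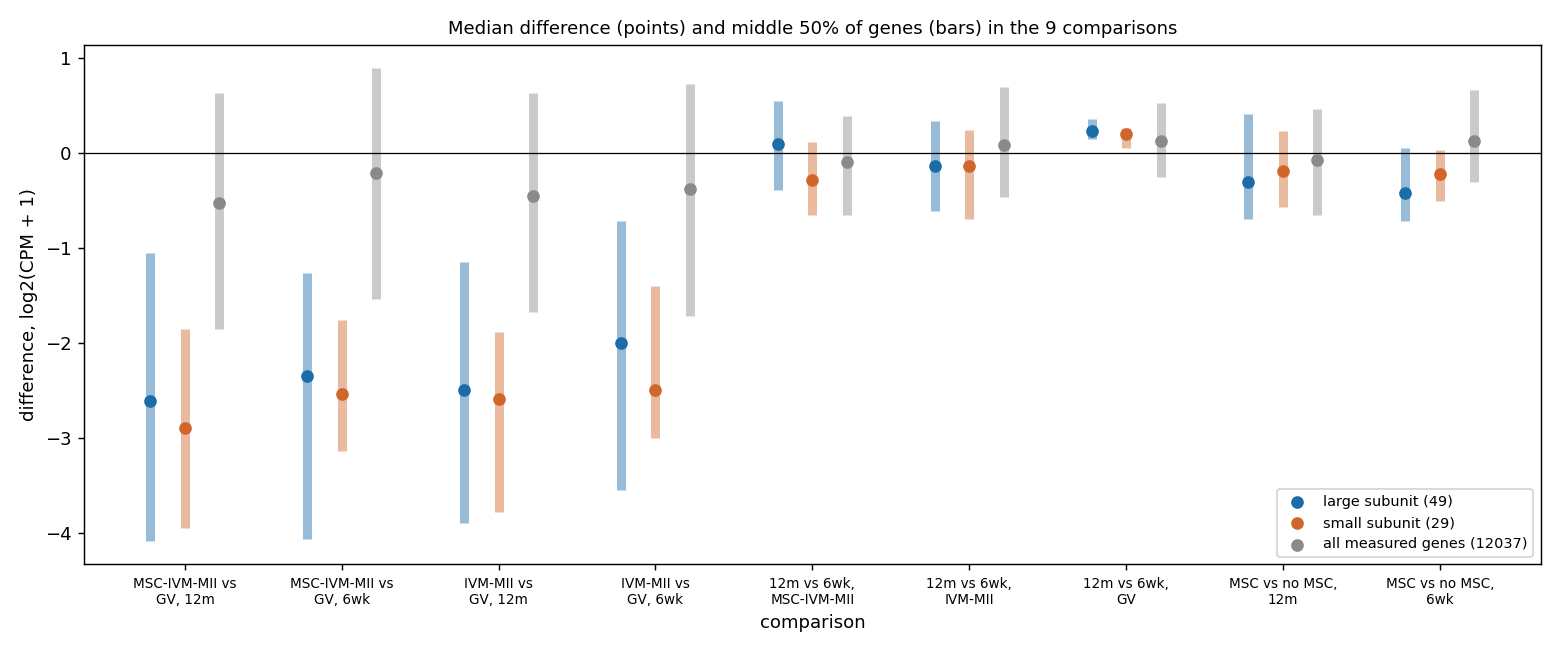
Median difference in log2(CPM + 1) (points) and interquartile range (bars) for the large subunit, the small subunit and all 12037 measured genes in the 9 comparisons. In the 4 maturation comparisons on the left both subunits have medians between −2.89 and −1.99, below those of all genes, while in the age and MSC comparisons they lie between −0.42 and 0.24.

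The ages share no oocyte. Across the 78 genes the 12m and 6wk differences correlated with r = 0.94 with MSC and r = 0.81 without, against 0.84 and 0.80 across all measured genes. Lower by 2-fold or more at both ages were 59 genes with MSC and 57 without, against 28.8% and 27.8% of all measured genes. The sign was shared by 73 and 72 genes (93.6% and 92.3%), against 79.0% and 78.7% of all genes. Single genes differed between the ages without MSC: Mrps36 had −5.01 at 12m and −1.95 at 6wk, Mrpl41 −5.55 and −2.79, and Mrpl46 −4.22 and −6.80. The widest gap was in Mrpl19, the least abundant gene, with −2.44 at 12m and 1.39 at 6wk. Its 27 counts over the 3 IVM-MII 12m oocytes lay in 1 of them, and its exons overlap those of Gcfc2 by up to 1962 bases on the other strand.

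**Figure D5:**
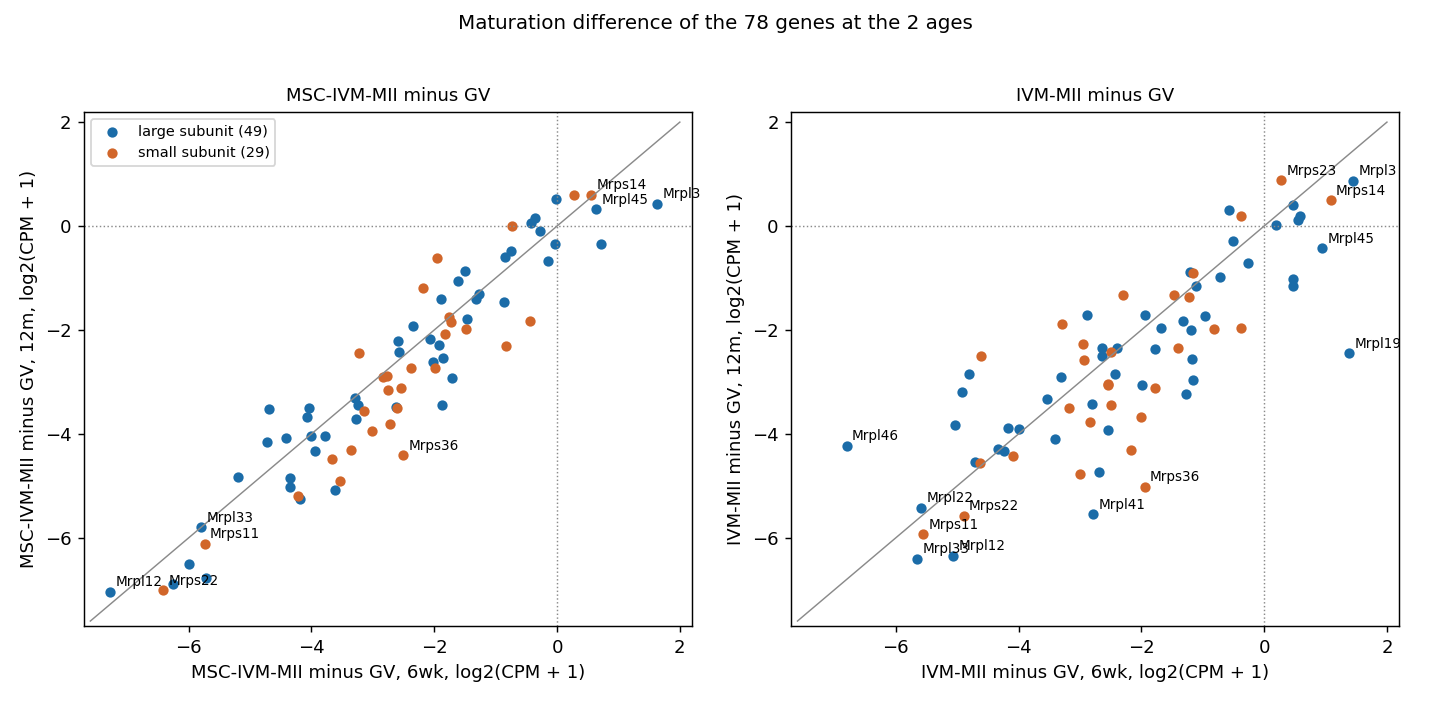
Metaphase II minus GV difference in log2(CPM + 1) of each of the 78 genes, 12m (vertical) against 6wk (horizontal), for MSC-IVM-MII (left) and IVM-MII (right); blue, large subunit, orange, small subunit, solid line, equal values. Points lie along the line with r = 0.94 on the left and 0.81 on the right, and Mrps36, Mrpl41 and Mrpl19 lie below it on the right.

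The age comparisons asked whether oocytes of 12m mice differ from those of 6wk mice at the same stage. In GV oocytes 0 of 78 genes differed by 2-fold or more in either direction, where 4.1% of all genes were lower and 9.53% higher. The median was 0.22, against 0.13 for all genes, and single genes ranged between −0.80 and 0.92. Leaving out 1 oocyte at a time put the median anywhere between −0.13 and 0.57, the highest without GV 12m oocyte 3. It put 0 to 3 genes higher at 12m by 2-fold or more, where the shares of all genes were not recomputed.

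In IVM-MII oocytes 15 genes were lower at 12m by 2-fold or more (all genes 10.5%) and 7 higher (all genes 16.6%), 5 and 3 of them without overlap (all genes 2.1% and 4.49%). In MSC-IVM-MII oocytes 8 were lower (all genes 14.9%) and 5 higher (all genes 8.12%), 2 and 2 without overlap (all genes 3.75% and 1.98%). The shares of the family, 19.2% lower and 8.97% higher in IVM-MII and 10.3% and 6.41% in MSC-IVM-MII, were within a factor of 2 of the background. Without overlap, the 5 lower genes in IVM-MII were 6.41% of the family, about 3 times the background. Without the Y01 oocyte of IVM-MII 6wk, 29 genes were lower at 12m in IVM-MII. Leaving out MSC-IVM-MII 6wk oocyte 1 (Y01) gave 13 lower in MSC-IVM-MII, and leaving out MSC-IVM-MII 12m oocyte 3 gave 22. Higher at 12m in MSC-IVM-MII were 12 without MSC-IVM-MII 12m oocyte 2, 10 without MSC-IVM-MII 6wk oocyte 2 and 8 without MSC-IVM-MII 12m oocyte 1. In IVM-MII 12 were higher without IVM-MII 6wk oocyte 2. For these counts with an oocyte left out, the shares of all genes were not recomputed, so they have no background.

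Mrps36 was lower at 12m without overlap both with and without MSC. It carries a mitochondrial ribosome symbol but its protein belongs to the oxoglutarate dehydrogenase complex of the citric acid cycle. Mrps36 had 12.1, 17 and 14.9 CPM in MSC-IVM-MII 12m oocytes against 82.7, 41.3 and 48.5 CPM in MSC-IVM-MII 6wk oocytes. It had 1.16, 36.8 and 12.2 CPM in IVM-MII 12m oocytes against 123, 46.2 and 95.8 CPM in IVM-MII 6wk oocytes. Neither pair overlapped, and the means were 3.92-fold and 5.28-fold lower at 12m. In GV oocytes it overlapped, with 495, 371 and 196 CPM at 12m and 349, 188 and 491 CPM at 6wk.

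Other genes at 20 CPM or more that passed 2-fold with age without overlap did so in 1 kind of oocyte. In IVM-MII oocytes Mrpl4 was higher at 12m (30.9 ± 17.6 against 6.47 ± 3.12 CPM), and Mrpl35 (50.6 ± 30.7 against 137 ± 35.3 CPM), Mrps9 (10.1 ± 6.51 against 25 ± 10.7 CPM) and Mrpl44 (26.9 ± 12.8 against 63.6 ± 17.9 CPM) were lower. In MSC-IVM-MII oocytes Mrps15 (26.1 ± 18.7 against 9.22 ± 2.21 CPM) and Mrps27 (39.2 ± 18.2 against 15.6 ± 4.65 CPM) were higher at 12m, and Mrpl3 (89.4 ± 23.9 against 187 ± 55.2 CPM) was lower (SD, n = 3 each). Under 20 CPM, Mrpl46 and Mrpl54 were higher and Mrpl41 lower at 12m in IVM-MII oocytes.

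The MSC comparisons asked whether the presence of MSC during maturation changed the metaphase II transcripts. At 12m 13 genes were lower with MSC by 2-fold or more (all genes 14.5%) and 2 higher (all genes 10.8%), 2 and 0 without overlap (all genes 2.67% and 2.1%). At 6wk 11 were lower (14.1% of the family, all genes 6.17%) and 3 higher (all genes 15%), 0 and 0 without overlap (all genes 1.1% and 2.66%). The medians were −0.24 at 12m and −0.37 at 6wk, against −0.07 and 0.13 for all genes. The 6wk count changed with the Y01 oocyte of IVM-MII, which holds low levels of the family: without it 30 genes were lower with MSC, and without both Y01 metaphase II oocytes 22. The higher count at 6wk was 10 without IVM-MII 6wk oocyte 2 and 5 without MSC-IVM-MII 6wk oocyte 1. At 12m 24 were lower without MSC-IVM-MII 12m oocyte 3, and 4 to 13 were higher when 1 oocyte was left out, the 13 without IVM-MII 12m oocyte 2. Shares of all genes were not recomputed with an oocyte left out, so these counts have no background and cannot be set against the shares above. Within prefixes the medians were −0.15 at 12m and −0.19 at 6wk.

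The MSC differences at 12m and 6wk were not correlated, with r = −0.07 across the 78 genes and 0.02 across all genes, and 40 of 78 had the same sign. Lower with MSC by 2-fold or more at both ages were 5 of the 78 (6.41%), against 0.964% of all genes. Higher at both ages were 0 of the 78, against 316 of all 12037 genes. Among genes at 20 CPM or more, Mrpl2 at 12m was the one past 2-fold without overlap, with 12.6, 32.9 and 40.4 CPM in MSC-IVM-MII against 41.1, 43.7 and 99.4 CPM in IVM-MII oocytes, 2.14-fold lower. The other gene without overlap, Mrpl46, was under 20 CPM.

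The other genes of the mitochondrial translation system were described in IVM-MII against GV oocytes. There 37.5% of all genes at 12m and 36.9% at 6wk were lower by 2-fold or more, and 17.4% and 19.8% were higher. Of 5 subunits with other symbols, 3 were lower by 2-fold or more in each maturation comparison: Aurkaip1 (differences of −3.10 at 12m and −3.54 at 6wk in IVM-MII), Chchd1 (−1.82 and −3.41) and Gadd45gip1 (−2.34 and −2.18). Dap3, a GTP-binding subunit, was not called, with 383 ± 300.6 against 539 ± 233 CPM at 12m and 449 ± 268 against 401 ± 101.3 CPM at 6wk. Ptcd3 had group means of 16.2 CPM or below.

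Of 12 measured translation factors, 5 at 12m and 6 at 6wk were lower by 2-fold or more in IVM-MII than in GV oocytes. At each age 2 were higher (all genes 17.4% at 12m and 19.8% at 6wk). The lower shares, 41.7% and 50%, were near those of all genes. The elongation factor Tufm fell, with differences of −3.42 at 12m and −4.59 at 6wk. Tsfm, the nucleotide exchange factor of Tufm, was higher, with 139 ± 65.6 against 56.7 ± 27.1 CPM at 12m and 164 ± 53.4 against 59.0 ± 13.7 CPM at 6wk, without overlap at either age. The initiation factor Mtif2 was higher by 1.10 and 1.93.

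Of 19 measured assembly factors, 9 at 12m and 6 at 6wk were lower and 6 and 2 higher, with medians of −0.14 and −0.08. The lower shares were 47.4% and 31.6% (all genes 37.5% and 36.9%). For the higher counts, here and below, the shares of all genes were 17.4% and 19.8%. Malsu1, which keeps the large subunit from joining too early, fell (−2.66 and −4.22), as did the GTPase Mtg1 (−4.43 and −4.07). The methyltransferase relatives Mettl15 and Mettl17, which act on the small subunit, were higher by 1.46 and 1.08 at 12m and 1.30 and 1.79 at 6wk. Of 12 mitochondrial aminoacyl-tRNA synthetases 7 were lower at each age, and 3 higher at 12m and 0 at 6wk, with medians of −1.46 and −1.74. Of 20 genes of mitochondrial transcription and RNA handling 9 and 11 were lower and 2 and 4 higher. Slirp, which stabilises mitochondrial mRNA, fell (−5.67 and −6.11), and the transcription factor Tfb2m was higher by 2.03 and 2.35.

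Set beside these, 79 of 85 cytosolic ribosomal protein genes were lower by 2-fold or more at each age (medians −3.78 at 12m and −3.93 at 6wk), and 63 and 69 of 81 nuclear subunits of the respiratory chain and ATP synthase (medians −2.58 and −3.18). The mitochondrial ribosomal protein genes had −2.52 and −2.35. At 12m their median was nearer to that of the respiratory chain genes than leaving out 1 oocyte moved it (−2.81 to −2.22). By share 80.8% of them and 77.8% of the respiratory chain genes were lower at 12m. At 6wk the respiratory chain median of −3.18 lay outside the family's range of −2.59 to −1.76 with 1 oocyte left out. At that age 59 of 78 family genes were lower, against 69 of 81. The respiratory chain median was not recomputed with an oocyte left out, and both lists come from the same oocytes. These ranges therefore cannot show likeness or its absence at either age.

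Some counts are less certain than others. Exons of other genes overlap those of 33 of the 78, and for 15 the overlapping gene had 10% or more of the member's counts. On opposite strands, such pairs include Mrpl48 with Rab6a (409 bases), Mrps7 with Gga3 and Mif4gd (127 and 119 bases) and Mrpl18 with Tcp1 (124 bases). Mrpl47 with Ndufb5 and Actl6a (530 and 452 bases) is another. On the same strand, Mrps34, with 247 counts, overlaps Nme3, with 2413 counts, by 289 bases. The pseudogene Mrpl23-ps1 had 806 counts over the 18 oocytes, against 1561 for Mrpl23, so reads of Mrpl23 may be split between them. The other pseudogenes had 0 to 2 counts.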

How the data were processed

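Each oocyte's deposited table gives expected counts, TPM and FPKM per gene, per the file headers. Expected counts, as deposited, are estimates and need not be whole. The TPM values deposited by the authors are scaled by transcript length and were used for levels and as an alternative, and the FPKM values, as deposited, were not used. The submitters' processing notes name the build GRCm38.p5 (mm10), alignment software TopHat2 (version 2.1.1) beside Cufflinks, and for read cleaning Trim Galore (0.4.5) with FastQC (0.11.8). Which program estimated the counts, with which annotation and whether by strand, is not given in the sources used here.

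The estimates were rounded. Library sizes were scaled by TMM over 18 libraries and low genes removed with filterByExpr by group (edgeR 4.0.16, R 4.3.3). Differences are of mean log2(CPM + 1). Folds are ratios of mean CPM. A floor of 3 counts per library stood in for groups at 0, which covers counting error only. Reads carry no molecular identifiers and are not independent molecules, and precision follows depth, 1914072 to 9193559 counts per oocyte. The computation was tested on simulated data in which few genes changed, as many up as down. A shift of many genes, as between GV and metaphase II oocytes, was not simulated. No 2 of the 153 library pairs agreed within sampling noise. Symbols came from a table of gene names, which matched 46488 of 47069 identifiers, and coordinates and transcripts from GENCODE M21 (GRCm38). Python 3.11.15 with NumPy 2.4.6, pandas 2.3.3 and Matplotlib 3.10.9 did the rest.

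The members, lists, tests and alternatives were chosen with earlier results of these data known. Named in a maturation comparison were, per subunit, the 4 largest falls and any 2-fold rise among genes of at least 20 CPM without overlap, and genes of at least 20 CPM in GV with a difference above −0.5; in age and MSC comparisons, genes past 2-fold of at least 20 CPM without overlap. The 5 highest and 5 lowest GV levels were also named. Genes outside this rule, the other lists' examples among them, were chosen after their values were seen. Alternatives were other size factors, totals without mitochondrially encoded genes, no filter, TPM, pseudocounts of 0.25 and 5, comparisons within title prefixes, subunits by structure, and leaving out single oocytes.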

Additional observations from a re-analysis of the deposited data

How the results depend on the processing

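Of 253 recomputed medians of the 78 genes and large minus small differences of medians, 226 moved by less than the spread between oocytes. Those with no filter could not move, because all 78 genes passed it. Leaving out GV 12m oocyte 3, or the Y01 oocyte where a comparison held 1, repeated a value with 1 oocyte left out. Leaving out 1 of 3 oocytes shifts a group mean of a value per oocyte by less than this spread. Such rows had little room to move, though 13 of the 27 that moved were of this kind. The 226 therefore include fixed and repeated values and do not measure stability. The lower calls of the 4 maturation comparisons stayed within 1.5 times. Over all alternatives, lower counts were 59 to 64 with MSC at 12m, 58 to 66 with MSC at 6wk, 60 to 67 without MSC at 12m and 50 to 63 without MSC at 6wk. The median with MSC was −2.25 at 12m with a pseudocount of 5, and at 6wk −1.92 without the Y01 metaphase II oocytes and −2.76 to −1.92 with 1 oocyte left out.

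The difference between subunits was not stable. With MSC at 12m it was 0.59 from TPM, 0.011 and 0.041 with pseudocounts of 0.25 and 5, −0.027 within title prefixes and −0.19 by structure. With MSC at 6wk it was −0.13 within prefixes and −0.11 by structure. Without MSC at 12m it was 0.39 from TPM and 0.31 and −0.16 with pseudocounts of 0.25 and 5, and at 6wk 0.10 with a pseudocount of 5 and 0.11 within prefixes. With 1 oocyte left out it ranged over −0.46 to 0.36 and −0.19 to 0.24 with MSC at 12m and 6wk, −0.19 to 0.48 and 0.076 to 0.46 without, 0.039 to 0.66 between ages with MSC, and −0.18 to 0.16 for MSC at 12m.

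With a pseudocount of 5 the lower counts were 4 for age with MSC, 2 for MSC at 12m and 6 for MSC at 6wk, where TPM gave 7 (all genes 4.21%). Higher counts for MSC at 12m were 4 with other size factors (all genes 11.4%), 4 from TPM (all genes 9.27%) and 6 with a pseudocount of 0.25. Shares of all genes were not recomputed with other pseudocounts or with oocytes left out. The causes were not tested. Low counts in metaphase II oocytes limit the folds of the deepest falls. No paired analysis was possible because the replicate numbers only name oocytes within a group. Title prefixes recur across groups of 1 age, and the values within prefixes compare oocytes of 1 prefix.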
